A study of Caenorhabditis elegans with 2 samples.

Results

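The genes for the proteins of the small ribosomal subunit were examined for binding of MEL-28 in whole young adult Caenorhabditis elegans. They were the nuclear protein-coding genes whose symbols start with rps- in Ensembl release 115 (assembly WBcel235, the same as ce11), 31 of 19973 nuclear protein-coding genes. For each gene the strongest peak summit was taken in a window reaching from 1000 bp before to 500 bp behind the annotated 5′ end, and a gene without a summit stayed in the count. MEL-28 was profiled by ChIP-seq, in which DNA is cross-linked to protein, sonicated, recovered with an antibody and sequenced. All animals were of strain OP646, carrying the unc-119(tm4063) III allele and the wgIs646 transgene, which gives a MEL-28 protein tagged with GFP and FLAG at its C terminus, and the immunoprecipitation was against GFP. Males and females were pooled at 64 h after synchronisation of bleached, starved L1 larvae. There were 2 biological replicates of this 1 group, with no second condition. A tagged transgene of 1 strain stands in for the endogenous protein, and whole animals mix all tissues, so neither a cell type nor the number of cells behind a peak can be read from the values.

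MEL-28 is the worm relative of vertebrate ELYS, a protein of the nuclear pore complex that also sits on chromatin and at kinetochores. The small ribosomal subunit scans the messenger RNA and reads its codons, and its proteins are needed in near equal amounts in every growing cell. In this worm many messenger RNAs, ribosomal protein messages among them, receive a spliced leader by trans-splicing, so an annotated 5′ end can be a splice site that lies downstream of the place where transcription starts. Several ribosomal protein genes carry in their introns genes for snoRNAs, small RNAs that guide the modification of ribosomal RNA. Neighbouring worm genes that point away from each other (divergent neighbours) share the sequence between their 5′ ends, and a summit in such a region cannot be given to one of the genes alone.

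Almost every rps gene had a MEL-28 summit, weak or strong, somewhere in its window, and a minority had a strong one. In the relaxed list made from both replicates pooled, 29 of 31 rps genes (93.5%) had a summit, against 28.2% of all protein-coding genes. Among the 1000 strongest nuclear pooled peaks, 9 rps genes (29.0%) had one, against 3.04% of all genes. In the list the authors thresholded for reproducibility between the replicates, 5 rps genes (16.1%) had a summit, against 1.22% of all genes. Those 5 were rps-20, rps-19, rps-26, rps-15 and rps-23. The signal of a peak is the authors' own value, on a scale that the labels and file headers do not name, so it was compared only within a list. All 369 nuclear reproducible peaks were the strongest 369 of the 17005 nuclear pooled peaks, so reproducible means a signal of at least 92.7 in the pooled list. A summit lay at the middle of its interval in 99.6% of pooled and 87.8% of reproducible peaks, so it marks the centre of a region some 430 bp wide in the median, not a base.

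The DNA under 3 of the summits is shown to place them. These are rps-23, whose protein lines the decoding centre and whose reproducible peak lay nearer to its own 5′ end than to any other, and the 2 strongest members outside the reproducible list, rps-24 and rps-0. Each sequence runs 75 bp to either side of the pooled summit along the strand of the gene, from the RefSeq WBcel235 genome. For rps-23 (chrIV:12391214-12391364, minus strand) the capitals mark a TTTCAG, the letters of a worm 3′ splice site. For rps-24 (chrIV:385503-385653, plus strand) and rps-0 (chrIII:4754280-4754430, minus strand) they mark the 2 runs of 12 or more letters that both windows share with at most 1 mismatch.
rps-23: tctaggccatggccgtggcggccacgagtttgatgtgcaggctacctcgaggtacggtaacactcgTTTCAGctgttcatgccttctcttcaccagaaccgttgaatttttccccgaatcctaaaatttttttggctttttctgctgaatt
rps-24: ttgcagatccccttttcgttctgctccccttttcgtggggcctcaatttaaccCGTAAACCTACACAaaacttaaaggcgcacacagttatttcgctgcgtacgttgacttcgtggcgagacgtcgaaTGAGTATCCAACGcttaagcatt
rps-0: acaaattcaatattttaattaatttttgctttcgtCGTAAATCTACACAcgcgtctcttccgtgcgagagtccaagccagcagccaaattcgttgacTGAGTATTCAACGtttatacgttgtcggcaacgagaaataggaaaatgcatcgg

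The 2 shared runs, sought after the values were known, were CGTAAANCTACACA and TGAGTATNCAACG, where N is the mismatch. The first was near a pooled summit at these 2 members alone among the 29, and at 7 of the 5627 protein-coding genes with a pooled summit in all (0.124%), both strands searched. Within 600 bp upstream of the 5′ end the first was found at 34 of 19973 genes (0.170%). Of these, 2 were rps genes and 0 were rpl genes, the genes of the large subunit. Among its 32 other genes, 31 had no 5′ end of an rps or rpl gene within 1000 bp. The second was near the pooled summit of 5 of 29 members, rps-20, rps-22 and rps-30 besides the 2 that gave it, and of 16 of 5627 genes in all (0.284%). Within 600 bp upstream of the 5′ end the second was found at 18 of 19973 genes (0.0901%), of which 6 were rps genes and 5 were rpl genes. Of the 7 others, 6 had the 5′ end of an rps or rpl gene within 1000 bp, so that they share the region, and the seventh was Y6G8.15. In all 6 rps genes, rps-3 among them, the run lay on the strand of the gene, between 96 bp (rps-22) and 316 bp (rps-3) upstream. The 5 sites that can be shown, each with 10 bases to either side and the run in capitals, are these.
rps-0: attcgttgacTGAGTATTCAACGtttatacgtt
rps-3: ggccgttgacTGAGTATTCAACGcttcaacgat
rps-22: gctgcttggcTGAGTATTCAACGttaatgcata
rps-24: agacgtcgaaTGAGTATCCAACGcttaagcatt
rps-30: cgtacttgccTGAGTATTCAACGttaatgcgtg
The run lay 7 bp from the pooled summit at rps-22, 28 bp at rps-0, 44 bp at rps-20, 46 bp at rps-30, 59 bp at rps-24 and 109 bp at rps-3. These 6 genes covered the range of MEL-28 signal, from 179 at rps-20 to 35.8 at rps-3. The region of rps-30 is shared with its divergent neighbour rpl-39, so the run counted for both is 1 site. Because rps-24 and rps-0 gave the run, their matches follow from its choice, and it is a match of letters that was not compared with known binding sites.

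The 3′ splice letters stood directly before most annotated 5′ ends. The 2 bases before the 5′ end were AG in 28 of 31 rps genes (90.3%), against 27.6% of all protein-coding genes, and the 6 bases were TTTCAG in 15 (48.4%), against 12.3%. Sequences of 20 bases before and 10 bases after the 5′ end show this, with the 6 bases before it in capitals, for rps-23 and rps-0, which end in AG, and for rps-24, which does not.
rps-23: aatttacatttttaTTCTAGgtaatatggg
rps-0: attaatttttgaatTTTAAGgtaatatgtc
rps-24: aaactacaattcaaATTTATtttgcaggta
The start codon lay close behind, at a median of 11 bp from the 5′ end (range 1 to 141 bp over the 31 genes). Positions below are therefore distances from a point that is the leader's splice site in letters for most members, and the place where transcription starts was not measured.

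The strongest rps summit was that of rps-20, a protein of the head of the subunit (WBGene00004489, chromosome I, 14468332 to 14469103). Its pooled signal was 179, rank 37 of 17005, with the summit 245 bp upstream. In replicate 1 it had signal 100.3 and rank 27 of 23774, and in replicate 2 signal 60.9 and rank 269 of 19576. The gene was near the top of both lists, higher in replicate 1, and its divergent neighbour ekl-4 starts 397 bp away.

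rps-19 (WBGene00004488, chromosome I, 9625049 to 9625796), whose human counterpart is mutated in Diamond-Blackfan anaemia, had a pooled signal of 170, rank 46, with the summit 275 bp upstream. Replicate 1 gave 92.4 (rank 37) and replicate 2 gave 90.0 (rank 60). It had the highest rank of all rps genes in replicate 2 and the second highest in replicate 1. The summit lay 170 bp from the 5′ end of the divergent gene hsr-9. rps-26 (WBGene00004495, chromosome I, 14759930 to 14760626), which lies where messenger RNA leaves the subunit, had a pooled signal of 161, rank 57. Its ranks were 106 in replicate 1 (signal 67.7) and 169 in replicate 2 (signal 68.5). These 3 genes formed the top of the members, with no other rps gene above a pooled signal of 106.

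The rps-26 summit stood far from its own gene. It lay 417 bp upstream of rps-26 and 40 bp from the 5′ end of the divergent gene tmem-107, which encodes a protein of the ciliary transition zone. The snoRNA gene F39B2.14, recorded on the opposite strand over a UTR exon of tmem-107, began 101 bp from the summit. Of the 5 reproducible members it is the one with a summit within 500 bp of a snoRNA gene, and without such summits the reproducible count was 4.

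rps-15 (WBGene00004484, chromosome I, 8815572 to 8816193), a head protein near the decoding site, had a pooled signal of 106, rank 238, with its summit 392 bp upstream. Its summit was almost midway to the 5′ end of F36A2.9, 389 bp on the other side. Replicate 1 gave signal 49.99 (rank 297) and replicate 2 gave 52.1 (rank 555). rps-23 (WBGene00004492, chromosome IV, 12390298 to 12391053) had a pooled signal of 96.7, rank 318, at 236 bp upstream, 298 bp from the 5′ end of dpm-3. It ranked 149 in replicate 1 (signal 62.0) and 1830 in replicate 2 (signal 39.0), so its place in the reproducible list came with a wide gap between the replicates.

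rps-24 stood just outside the reproducible list and rps-23 just inside it. rps-24 (WBGene00004493, chromosome IV, 385887 to 386606), whose human counterpart is also mutated in Diamond-Blackfan anaemia, had a pooled signal of 92.5, rank 373, against 92.7 for the weakest nuclear reproducible peak. It ranked 364 in replicate 1 (signal 47.4, 313 bp upstream). In replicate 2 its strongest summit had rank 1685 (signal 39.8) but lay 546 bp upstream, and the one beside the pooled summit had rank 7403 (signal 26.9, position -295 bp). It had no neighbour with a divergent 5′ end within 1000 bp, and the nearest upstream gene, spl-1 on the opposite strand, began 2701 bp away. Next came rps-0 (WBGene00004469, chromosome III, 4753007 to 4754051) with pooled signal 87.9, rank 448. Its summit lay 304 bp upstream and 69 bp from the divergent gene rbg-3, and it ranked 423 in replicate 1 and 775 in replicate 2.

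rps-12 and rps-28 were strong in one replicate. rps-12 (WBGene00004481, chromosome III, 5679298 to 5680187) had pooled signal 81.7, replicate 1 signal 59.2 (rank 171) and replicate 2 signal 19.3 (rank 18866 of 19576, the bottom of that list). rps-28 (WBGene00004497, chromosome IV, 1659691 to 1659997), the shortest member at 307 bp, had pooled signal 80.8, replicate 1 signal 61.2 (rank 152) and replicate 2 signal 33.5 (rank 3392). Its summits in the replicates lay 1 bp apart, 453 and 454 bp upstream, so a gap in rank came with no gap in position.

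**Figure D1:**
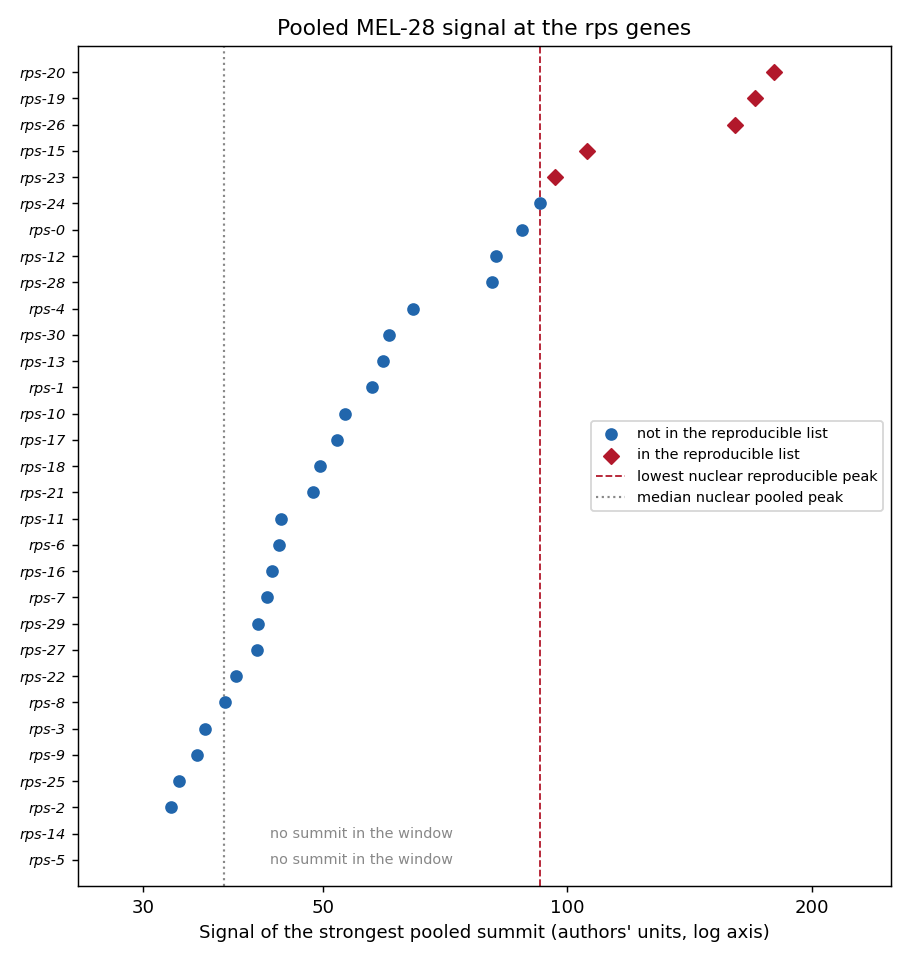
Authors' signal of the strongest pooled summit (x axis, log scale) for each rps gene (rows), with the genes in the reproducible list as red diamonds and the others as blue circles. The 5 red genes lie right of the dashed line at 92.7, rps-24 sits on its edge at 92.5, and rps-14 and rps-5 have no pooled summit.

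Below these 9 genes the signal fell towards that of ordinary pooled peaks. The next members, from rps-4 down to rps-21 (48.6), were still above 46.6, the upper quartile of all nuclear pooled peaks. The median pooled signal of the 29 members with a summit was 52.0 (quartiles 41.6 and 81.7, range 32.5 to 179), against 40.6 for the 5627 protein-coding genes with one. rps-4 had 64.6 (rank 1322), rps-30, whose protein is made fused to a ubiquitin-like domain in mammals, had 60.4 (rank 1663), rps-13 had 59.3 and rps-1 had 57.5. From rps-10 (53.2) down to rps-27 (41.5), 10 members lay between these genes and the rest, with ranks of 2594 to 6215, among them rps-6, the target of S6 kinase in mammals (44.1). rps-22 (39.1), rps-8 (37.9), rps-3 (35.8), rps-9 (34.9), rps-25 (33.3) and rps-2 (32.5, rank 13048) closed the list, and the last 4 were below 37.7, the median of all nuclear pooled peaks.

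The deposited −log10 q-values followed the same order. They were at the list's maximum of 2.05 for the 8 strongest members, 1.98 for rps-28, 1.42 for rps-4 and 0.0685 for rps-2. A −log10 q-value near 0 is a q-value near 1. Every member from rps-10 (0.784) down had a −log10 q-value below 1, so the count of 29 includes many weakly called peaks. The pooled signal carries no error between replicates, and the separate replicate values are the only measure of its spread.

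2 members had no pooled summit. rps-5 (WBGene00004474, chromosome IV), which lies where messenger RNA leaves the subunit, had a single summit in replicate 1, with signal 17.01 and rank 13640, 920 bp upstream. rps-14 (WBGene00004483, chromosome III), a protein of the platform, had one in replicate 2 alone, with signal 20.4 and rank 16483, 55 bp upstream. Both were weak summits of 1 replicate, so these genes stood apart from the rest of the group in the pooled list while each still had a peak in one relaxed list.

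The same 3 rps genes led both replicates, and the order below them differed. A summit was present for 29 members in replicate 1, against 37.1% of all genes, and for 25 in replicate 2, against 30.5%. It was present in both for 23 members, against 18.1% of all genes, with 6 in replicate 1 alone and 2 in replicate 2 alone. With ranks scaled to the length of each list, 18 of these 23 members stood higher in replicate 1. The same count was not made over all genes, so it is not shown to be particular to the rps genes. Over all protein-coding genes with a summit, the median rank was 40.1% from the top in replicate 1 and 42.3% in replicate 2. Among the strongest 369 nuclear peaks of each replicate, 9 members had a summit in replicate 1 (1.3% of all genes did) and 3 in replicate 2 (1.01% of all genes). The 3 were rps-19, rps-20 and rps-26, which were also among the 9 of replicate 1, and 0.576% of all genes had a summit in both. The remaining 6 of replicate 1 were rps-23, rps-28, rps-12, rps-15, rps-1 and rps-24. rps-1 ranked 318 in replicate 1 (signal 49.1, 254 bp upstream) and 2853 in replicate 2 (signal 35.1), where its strongest summit was another one, 988 bp upstream.

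As a description over the 23 members, the ranks of the replicates had a Spearman rho of 0.595. Over the 3608 protein-coding genes with a summit in both lists it was 0.405. The points share their libraries, and the difference between these coefficients was not tested.

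**Figure D2:**
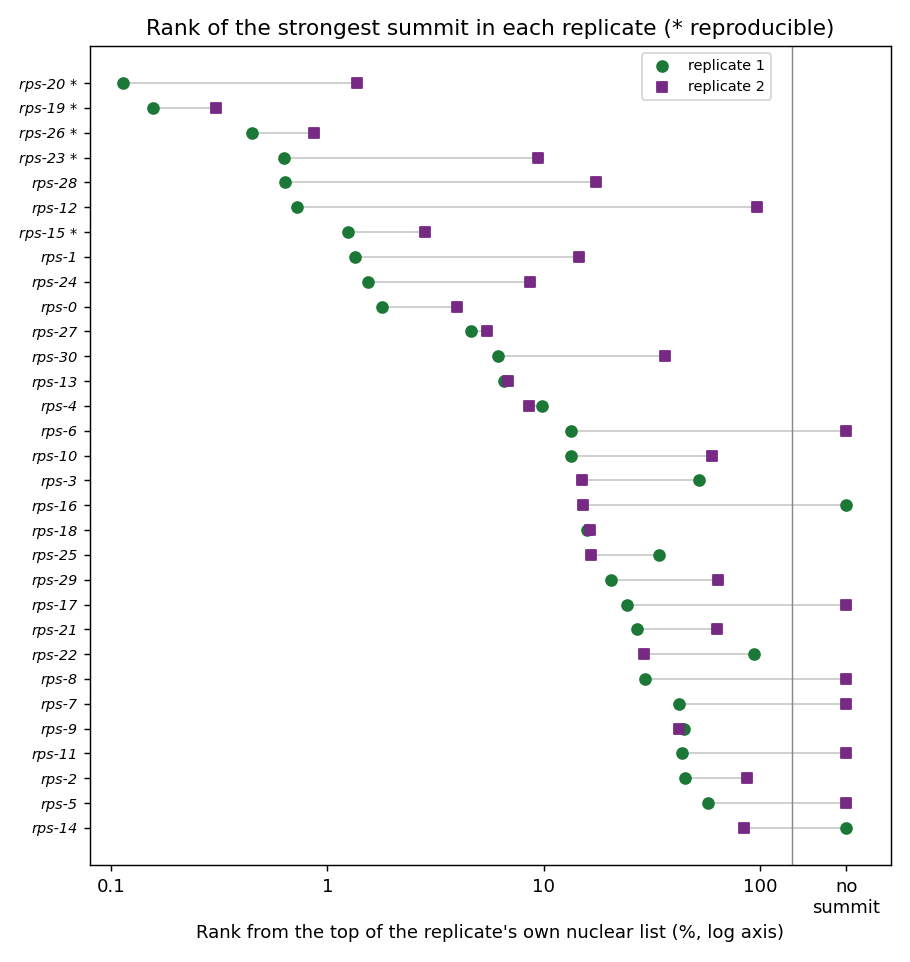
Rank of the strongest summit of each rps gene, as a percentage from the top of the replicate's own nuclear list (x axis, log scale), in replicate 1 (green circles) and replicate 2 (purple squares), with reproducible genes starred. The starred genes are within the first 10% of both lists, whereas rps-12 is near the top in replicate 1 and near the bottom in replicate 2.

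The reproducible members had close summits in the replicates. Between replicates the strongest summits of the 5 reproducible genes were 8 to 36 bp apart, and over all 23 members the median distance was 233 bp, with 8 members within 100 bp. The strongest peak intervals of the replicates overlapped at all 5 reproducible genes and at 10 of the other 18, and at the remaining 8 they were separate peaks in the same window. These distances and overlaps were not taken over all genes, so they are not shown to be particular to the rps genes. The reproducible list was thresholded for agreement between the replicates, and it also held the strongest 369 pooled peaks. How far close summits at its members follow from that choice was not tested. In the pooled list 24 of 29 summits (82.8%) lay upstream of the 5′ end, against 70.6% over all genes, with a median of 261 bp upstream (quartiles 391 and 147 bp upstream) against 198 bp upstream. In the bin from 200 to 300 bp upstream there were 9 members (31.0%) against 10.0% of all genes, and in the bin from 300 to 400 bp upstream 6 members (20.7%) against 7.55%. The first 100 bp upstream held 2 members and the first 100 bp downstream held rps-16 alone.

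**Figure D3:**
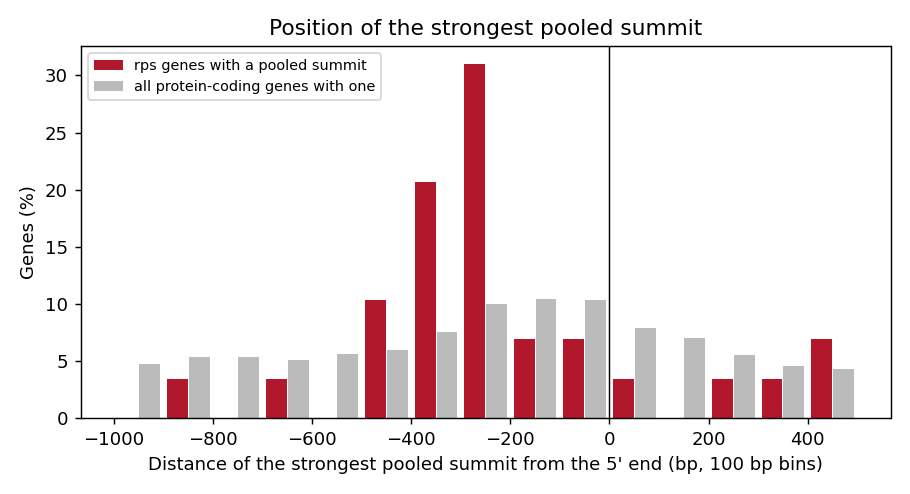
Share of genes (y axis, %) whose strongest pooled summit falls in each 100 bp bin of distance from the annotated 5′ end (x axis), for the 29 rps genes (red) and all 5627 protein-coding genes with a pooled summit (grey). The red bars peak at 31.0% and 20.7% between 200 and 400 bp upstream, while the grey bars are flatter and highest within 300 bp upstream.

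The exceptions lay inside genes. 5 members had the strongest summit at or inside their own record, rps-16 at 12 bp, rps-25 at 254 bp, rps-13 at 342 bp, rps-27 at 415 bp and rps-8 at 495 bp downstream of the 5′ end. Of these only rps-13 had a pooled signal above the 52.0 median of the members. Of all 29 summits 17 were intergenic and 4 lay in an exon of an annotated noncoding RNA gene, at rps-1 (F56F3.10), rps-6 (Y71A12B.30), rps-10 (D1007.22) and rps-30 (C26F1.14 and C26F1.13). Another 3 lay within other protein-coding genes, at rps-2 (a coding exon of C49H3.12), rps-18 (a UTR exon of the translocon gene sec-61.A) and rps-29 (an intron of snt-2). Such places were not counted over all genes with a pooled summit, so none is shown to be particular to the rps genes.

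All reproducible rps summits lay beside a divergent neighbour. A protein-coding gene on the opposite strand with its 5′ end less than 1000 bp upstream was found for 19 of 31 rps genes (61.3%), against 17.7% of all protein-coding genes. The distance between such 5′ ends had a median of 531 bp (range 266 to 781 bp), and for 14 of the 19 the pooled summit lay between them. How often a summit lay between both 5′ ends was not counted over all genes. All 5 reproducible members had such a neighbour, and in 4 of them its 5′ end was nearer to the summit than that of the rps gene, rps-23 being the exception. Of the 12 rps genes without a divergent neighbour 0 had a reproducible summit, and rps-24 and rps-28 were among the 1000 strongest. Over all genes a reproducible summit was found for 2.97% of those with and 0.846% of those without a divergent neighbour. Among rpl genes it was found for 4 of 28 with and 3 of 19 without one. For initiation and elongation factor genes (eif and eef) it was 0 of 17 and 2 of 14. For genes of the mitochondrial small subunit (mrps) it was 1 of 11 and 0 of 18. Which gene of a pair the MEL-28 peak belongs to was not tested, and when summits were given only to the nearest 5′ end, 1 rps gene (rps-23) kept a reproducible summit and 18 kept a pooled one. Over all genes the same rule took the reproducible share from 1.22% to 0.876% and the pooled share from 28.2% to 23.9%.

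The neighbours had varied roles. They included ska-3 at rps-12, a gene of a spindle and kinetochore complex whose 5′ end is 293 bp away, lsm-1 at rps-9, which acts in messenger RNA decay, ifet-1 at rps-1, a repressor of translation, and polh-1 at rps-22, a DNA repair polymerase. In 3 cases the neighbour was a large-subunit gene, rpl-39 at rps-30 (499 bp), rpl-24.1 at rps-10 (610 bp) and rpl-36 at rps-14 (663 bp). None of these 3 shared regions held a peak of the 1000 strongest in the rps window, with signals of 60.4 at rps-30 and 53.2 at rps-10 and no pooled summit at rps-14.

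**Figure D4:**
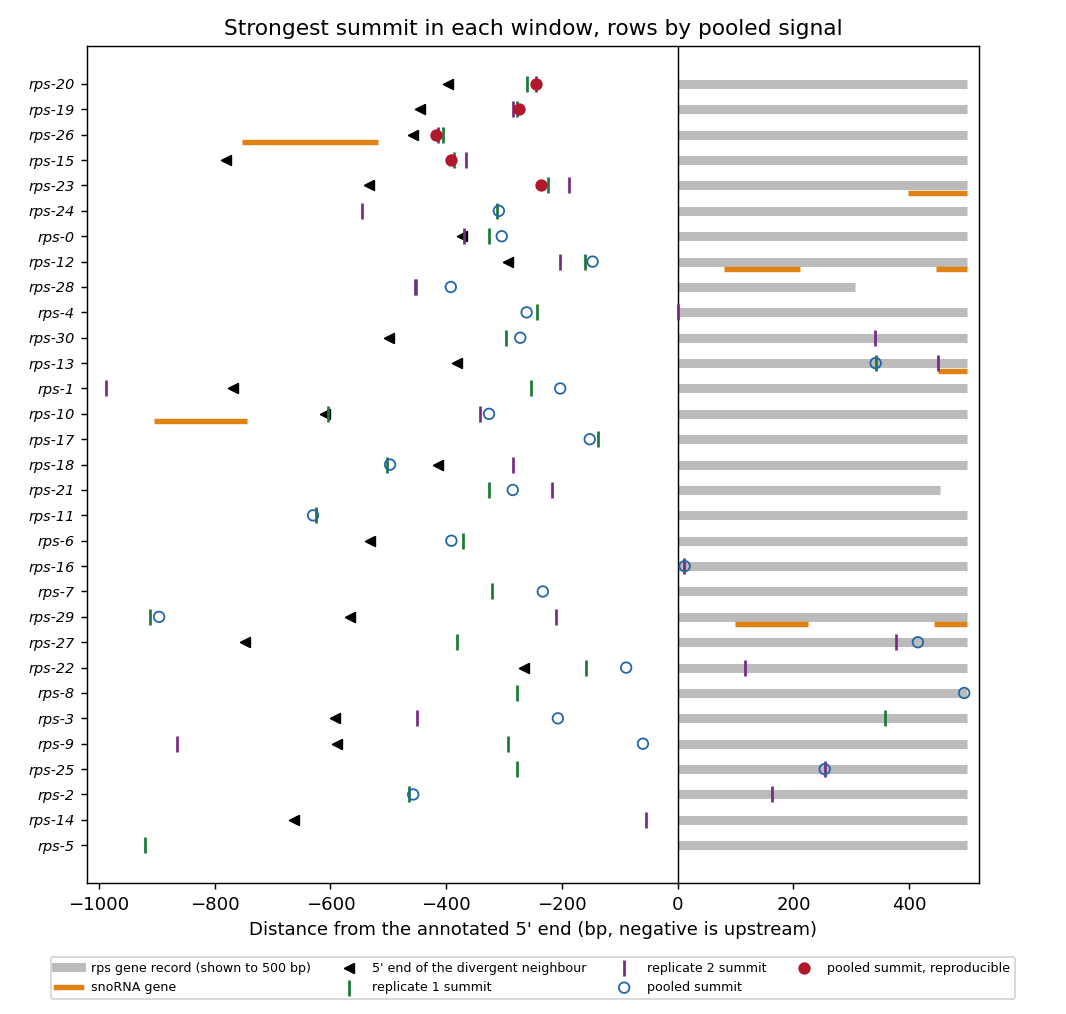
Map of the strongest summit for each rps gene (rows, strongest pooled signal at the top) by distance from the annotated 5′ end (x axis, bp, negative is upstream), with pooled summits as circles (red where reproducible), replicate summits as ticks, divergent 5′ ends as black triangles, the gene record in grey and snoRNA genes in orange. In the upper rows the ticks of both replicates crowd around the pooled summit upstream of the gene, and in the lower rows they scatter over the window.

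A minority of rps summits lay near a snoRNA gene, at a larger share than over all genes. Inside 5 members (rps-4, rps-12, rps-13, rps-23 and rps-29) lay 7 intronic snoRNA genes, and rps-10 and rps-26 had one in the upstream window, whereas 0 of 31 had a tRNA or snRNA gene there. Small RNA genes inside genes or windows were not counted over all genes. The strongest pooled summit lay within 500 bp of a snoRNA gene at 4 of 29 members (13.8%), against 1.3% of the 5627 protein-coding genes with a pooled summit. That difference was not tested. The distances were 101 bp at rps-26, 107 bp at rps-13 (C16A3.11), 227 bp at rps-12 (F54E7.10) and 418 bp at rps-10 (D1007.20). In replicate 2 the rps-13 summit was inside C16A3.11. At rps-23 the intronic F28D1.13 was 634 bp from the summit, and at rps-4 Y43B11AR.7 was 1013 bp away. At rps-29 both B0412.6 and B0412.7 lay in the gene, 995 and 1338 bp from a summit 896 bp upstream.

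By chromosome, the reproducible members were gathered on chromosome I. There, 4 of 8 rps genes had a reproducible summit, with 1 of 10 on chromosome IV, 0 of 9 on chromosome III, 0 of 3 on chromosome V and 0 of 1 on chromosome II (rps-9), and there was no rps gene on chromosome X. Over all protein-coding genes the share was 2.19% on chromosome I, 1.31% on chromosome IV, 2.23% on chromosome III, 0.561% on chromosome V and 0.957% on chromosome II. The median pooled signal was 79.4 for the 8 genes on chromosome I, 53.0 for 8 on chromosome III and 49.6 for 9 on chromosome IV, with overlapping ranges (42.7 to 179, 35.8 to 87.9 and 32.5 to 96.7). These differences were not tested.

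The place of the protein in the subunit did not divide the genes clearly. Of the 13 genes for proteins of the head, 3 had a reproducible summit and 5 one among the 1000 strongest, against 2 and 4 of the 18 genes for the body and platform. The median pooled signal was 52.6 (range 33.3 to 179) for 12 head genes and 48.6 (range 32.5 to 161) for 17 body genes, so the ranges overlapped almost whole. The difference was not tested.

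Base composition and short motifs around the summits were read over the same 75 bp to either side. The GC content had a median of 44.4% over the 29 members (range 20.5 to 51.7%), against 38.4% for all genes with a pooled summit and 46.4% for the 369 nuclear reproducible summits. The TATA box letters TATAAA, searched on both strands, were found at 4 members (13.8%), rps-0, rps-3, rps-17 and rps-27, against 15.5% of all genes. A GAGAGA, both strands, was found at rps-4 (3.45% against 13.0%), TTTTTTTT, both strands, at rps-1 and rps-27 (6.90% against 13.5%) and a TTTCAG on the strand of the gene at 6 members (20.7% against 16.2%). CACGTG (an E box) and GGTTCGA (the core of the tRNA gene B box), both strands, were at 0 of 29 members, and at 3.57% and 1.74% of all genes. None of the 5 members of the reproducible list held any of these letters within the window except rps-23, with the TTTCAG shown above.

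Beside the other gene groups of translation, the rps genes had the highest share with any pooled, 1000 strongest or reproducible summit. The intervals were wide, and the rps genes were not highest by every measure. The median pooled signal was 52.0 for rps, 58.0 for rpl, 58.0 for eif and eef and 42.3 for mrps genes. Among the strongest 369 peaks of both replicates, 9.68% of rps, 10.6% of rpl, 3.23% of eif and eef and 0% of mrps genes had a summit. Of 47 rpl genes, 37 (78.7%) had a pooled summit, 11 (23.4%) one among the 1000 strongest and 7 (14.9%) a reproducible one. The strongest rpl signals were higher, with 322 at rpl-15 (rank 5) and 305 at rpl-3 (rank 6), against 179 at rps-20. Of 31 eif and eef genes, for initiation and elongation factors, 18 (58.1%), 6 (19.4%) and 2 (6.45%) had such summits. Of 29 mrps genes, for the small subunit of the mitochondrial ribosome, 18 (62.1%), 3 (10.3%) and 1 (3.45%) had them. The exact 95% interval of the reproducible share was 5.45 to 33.7% for rps genes, 6.20 to 28.3% for rpl genes, 0.791 to 21.4% for eif and eef genes and 0.0873 to 17.8% for mrps genes. These intervals all overlap that of the rps genes. The differences between groups were not tested.

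**Figure D5:**
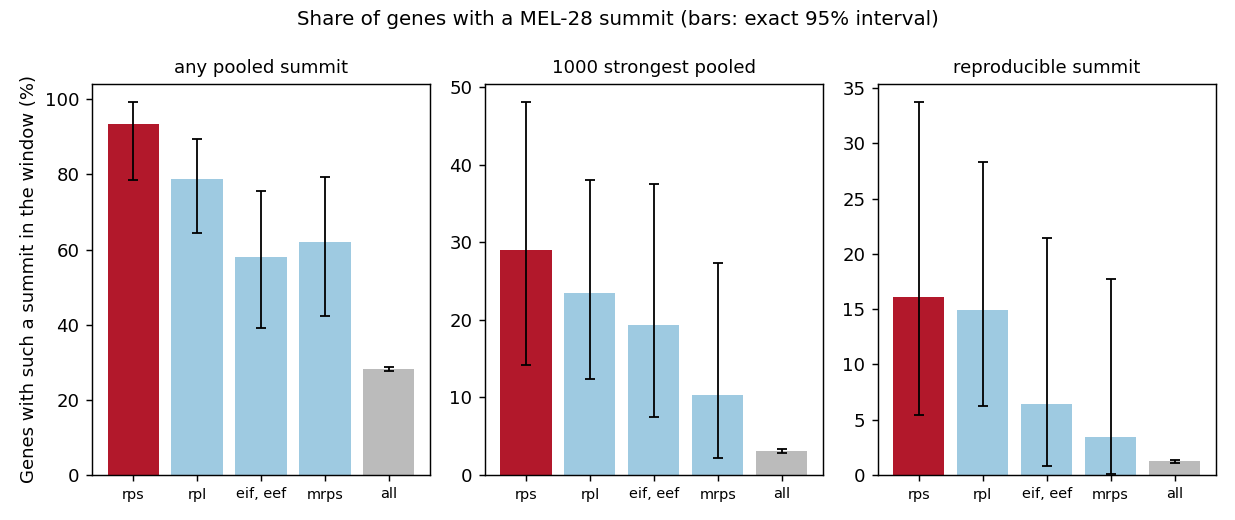
Share of genes (y axis, %, from 0, a separate scale in each panel) with any pooled summit, one among the 1000 strongest pooled peaks, and a reproducible one, for rps, rpl, eif and eef, mrps and all protein-coding genes, with exact 95% intervals that cover the counting of genes alone. The rps bars are at 93.5%, 29.0% and 16.1%, and their intervals overlap those of the rpl and mrps genes in each panel. The eif and eef intervals overlap them too, except for any pooled summit (39.1 to 75.5% against 78.6 to 99.2% for rps genes).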

How the data were processed

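Peak lists of MEL-28 ChIP-seq on ce11 were used, 1 relaxed list for each of 2 biological replicates, 1 from both pooled and 1 reproducible list. Per the deposited manifests, each replicate's list came from its own alignments and a control, and the reproducible list from the other 3. Aligner, peak caller and the threshold of reproducibility: not given in the sources used here. Lists on ce10 were not used. Each peak's signal and −log10 q-value are values the authors deposited, and the summit is the deposited offset (another unit, in bp) from the peak start. The files hold peaks and not reads, so depth is unknown and no interval covers it.

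Summits were assigned to Ensembl release 115 genes within 1000 bp upstream and 500 bp downstream of the outermost 5′ end, leaving out mitochondrial peaks. Ranks were taken within each nuclear list. Described in full are reproducible members, the highest and lowest, those beside the threshold, those without a summit and those near snoRNA genes, with their neighbours. Further members are named to account for all, chosen after their values were seen, as were the shared runs and the roles in the subunit. The members and lists were chosen with earlier results of these data known. There was 1 group, so counts are set beside the share of all genes and no test was run. The window search was tested on simulated peaks. Alternatives were other windows, gene assignment, 5′ ends, small RNA genes, single replicates, stricter lists and motif windows. Python 3.11.15, pandas 2.3.3, numpy 2.4.6, scipy 1.17.1 and matplotlib 3.10.9 were used.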

Additional observations from a re-analysis of the deposited data

How the results depend on the processing

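The count of rps genes with a reproducible summit was 5, became 1 when a summit counted only for the nearest 5′ end and 3 with that list's signal above its median, and ran from 3 to 9 with the strongest 369 peaks of 1 replicate alone. It stayed at 5 with a narrower window, an upstream window, the start codon as 5′ end and interval overlap, and was 4 without summits near small RNA genes. In that order, the share of all genes was 0.886%, 1.1%, 1.25%, 1.35% and 1.01%. It was 0.616% with signal above the median, and 1.3% and 1.01% with the strongest 369 peaks of replicate 1 and of replicate 2 alone. The count with a pooled summit was 29 and became 18 with the nearest 5′ end only, with 24 to 30 under the other 7 alternatives. Over all genes the share with the nearest 5′ end only was 0.876% for a reproducible summit, 23.9% for a pooled one and 2.28% for one among the 1000 strongest, and 18.8 to 37.1% for a pooled one under the other 7. The count among the 1000 strongest was 9, became 3 with the nearest 5′ end only and ran from 5 to 10 with 1 replicate alone, alternatives chosen after seeing the data. With 1 replicate alone the share of all genes was 3.03% (replicate 1) and 2.49% (replicate 2). The count at the top of both replicates was 3 (0.576% of all genes) and became 5 with the 1000 strongest peaks of each (1.22% of all genes). The nearest 5′ end rule removes by construction the summits nearer to another gene's 5′ end, and the cause of the other changes was not tested. The median pooled signal (43.8 to 55.4) and the median position (from -313 to -205 bp) stayed within the 95% interval of the members' own medians, from order statistics, and the signal was not recomputed in single replicates because their scales are separate. Of the motifs, the T run moved most, from 0% in the narrower to 34.5% in the wider window. GAGAGA was at 0% in the narrower one, and at 13.8% both in the wider one and with the summits of replicate 1 alone. TTTCAG was at 6.90% with the summits of replicate 1 alone. The motif shares of all genes were not taken under these alternatives. No paired analysis was possible because there was 1 group and no test.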

Other observations

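Proteins of the small subunit are also encoded outside the rps symbols. The gene ubl-1, which encodes a ribosomal protein fused to a ubiquitin-like domain, had a pooled signal of 29.3, rank 16994 of 17005, 877 bp upstream. It had no summit in replicate 2. The gene rack-1, for a protein that sits on the head of the subunit, had no pooled summit and 1 in replicate 1, with signal 20.4 and rank 7960, 288 bp upstream. Neither gene had a summit among the 1000 strongest pooled peaks.

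Among the groups set beside the rps genes, the reproducible rpl genes were rpl-15, rpl-3, rpl-20 (244), rpl-35 (201), rpl-12 (170), rpl-7A (100.3) and rpl-38 (93.4), with their pooled signals in brackets where not given above. Their summits lay 69 to 438 bp upstream. The reproducible initiation factor genes were eif-3.C (122.8, 260 bp upstream) and eif-2Bgamma (93.7, 832 bp upstream), and the reproducible mitochondrial gene was mrps-28 (115.7), whose summit lay 997 bp upstream, at the edge of the window. The rpl genes had a divergent neighbour in 28 of 47 cases (59.6%), near the share of the rps genes, and a reproducible summit in 4 of 28 with and 3 of 19 without one. The run TGAGTATNCAACG was found within 600 bp upstream of rpl-13, rpl-4, rpl-32, rpl-7A and rpl-39, on the opposite strand from the gene in 4 of these 5 and on the same strand in rpl-13.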
